A study of Mus musculus with 24 samples.

Results

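The experiment described here is the TET2 CLIP of clone 65, set against the input RNA of the same clone. CLIP (cross-linking and immunoprecipitation) joins proteins to the RNA they touch in living cells by ultraviolet light, pulls down 1 protein and sequences the RNA that comes with it. The members are the 4 libraries labelled clone 65, of 24 in the series, and all gene rows of the CLIP count table. Of 53900 rows, 435 were nuclear tRNA genes and 53465 were other genes. A count in any of the 4 libraries was found for 35745 rows, and 10334 held enough counts to be tested.

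All 4 libraries came from mouse E14 embryonic stem cells in which TET2 carries an HA and a His tag, so the input libraries carry the tag as well. There were 2 CLIP libraries and 2 input libraries, which the series calls biological replicates. Cells grew on gelatin with LIF and 2 kinase inhibitors, CHIR99021 at 3 µM and PD0325901 at 1 µM. They received 500 µM 4-thiouridine for 4 hours, a uridine analogue that cross-links readily, and then 400 mJ/cm2 of UVB. Clone 65 is 1 line, and the series holds a second tagged clone, clone 75, treated alike, also with 2 CLIP and 2 input libraries. A pull-down from untagged cells was not analysed here, so RNA that adheres to the beads or antibody and RNA bound by TET2 cannot be told apart.

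TET2 belongs to the TET dioxygenases, which oxidise 5-methylcytosine in DNA and have also been shown to act on 5-methylcytosine in RNA. Methylated cytosines are common in tRNA and rRNA, where dedicated methyltransferases place them, and occur in other structured RNAs. Small structured RNAs include tRNA, the snRNAs that splice introns, 5S rRNA of the large ribosomal subunit, and the RNA parts of enzymes such as RNase P, which trims tRNA precursors.

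The CLIP libraries were small, with 221060 and 223413 counts, against 2960450 and 4729463 in the inputs. The row Gm26917, taken here to collect rRNA reads, alone took 18.91% and 17.57% of the CLIP counts and 24.41% and 21.06% of the input counts. The 9 embryonic stem cell markers, Pou5f1, Nanog and Esrrb among them, summed to 1687 and 1862 raw CPM (the counts-per-million scale, a count divided by its library total) in the inputs, and each was counted in all 4 libraries. The 7 fibroblast markers of the cell type check summed to 14.9 and 13.7 CPM in the inputs, with Dcn at 0 in both. A wider fibroblast list of 10 genes summed to 2100 and 2094, nearly all of it Fn1 (2047 and 2044), with Vim at 37.8 and 35.7. The 5 trophoblast markers summed to 222 and 178, nearly all of it Gata3, while Cdx2, Elf5, Hand1 and Ascl2 were each at or under 2.33 there. Tfap2c, Krt8 and Krt18 brought that sum to 272 and 219 over 8 genes. Tet2 itself was at 382 and 426 raw CPM in the inputs and 321 and 278 in the CLIP libraries, and its log2 change after the scaling described below was -0.02 (adjusted p = 0.963).

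The libraries recovered with TET2 held a different mix of RNA classes from the inputs. Shares are given as the percent of a library's counts that fall on all rows of a class, with no filter on low counts. Unnamed snRNA gene copies (909 rows, listed only by Gm numbers) took 9.896% and 10.74% of the CLIP counts and 1.427% and 1.548% of the input counts. That was the largest class gain in counts, with mean shares of 10.32% ± 0.594 against 1.487% ± 0.0855 (SD, n = 2 each), a 6.94-fold ratio.

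Named snRNA rows took 0.1501% and 0.1616% of the input counts and 1.103% and 1.222% of the CLIP counts, a 7.46-fold ratio. The 11 structured non-coding RNA rows (RNase MRP, RNase P, 7SK, 7SL, Y, vault and telomerase RNAs) went from 0.4141% and 0.4259% to 2.604% and 3.513%, a 7.28-fold ratio. The 180 rows of 5S rRNA went from 0.2364% and 0.2505% to 1.33% and 1.61%, a 6.04-fold ratio. In each of these classes both CLIP libraries lay far above both inputs.

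Nuclear tRNA genes took 0.2534% and 0.2644% of the input counts and 0.9011% and 1.109% of the CLIP counts, a 3.88-fold ratio. The miRNA rows went from 0.3865% and 0.3676% to 1.717% and 0.9946%, and 1 row, Mir6236, carried 1.612% and 0.8795% of that. Replication-dependent histone genes, whose mRNAs end in a stem-loop and not in a poly(A) tail, went from 0.2905% and 0.2966% to 0.4804% and 0.5259%, a 1.71-fold ratio.

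Several classes were a smaller part of the CLIP counts than of the input. H/ACA box snoRNAs and scaRNAs, which guide pseudouridylation, had shares of 0.1194% and 0.128% in the inputs and 0.07012% and 0.08236% in the CLIP libraries, a ratio of 0.616. Other protein-coding genes made up 56.18% and 59.06% of the inputs and 44.35% and 45.16% of the CLIP counts. Cytosolic ribosomal protein genes had a ratio of 0.798, and long non-coding RNAs 0.853. C/D box snoRNAs, which guide ribose methylation, were a larger part, with a ratio of 1.44. The mitochondrial mRNAs overlapped between CLIP and input.

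With 2 libraries against 2, an exact two-sided permutation test of a class share cannot give a p below 0.333. Each class given with a ratio above reached that p of 0.333 in the exact test. Shares sum to a whole, so a gain in some classes lowers others.

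**Figure D1:**
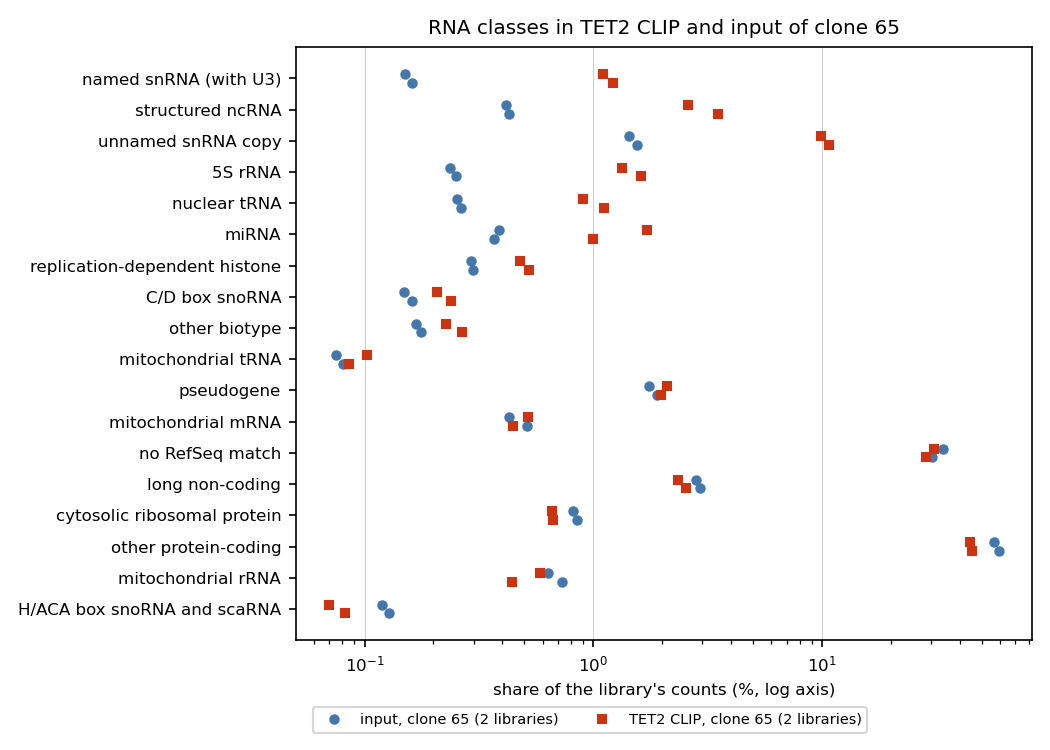
Share of each library's counts (percent, log axis) on each RNA class, for the 2 inputs (circles) and the 2 TET2 CLIP libraries (squares) of clone 65, ordered by the ratio of mean shares. The 4 classes at the top lie between 6.04-fold and 7.46-fold higher in CLIP, and other protein-coding genes stand at 56.18% and 59.06% in the inputs and 44.35% and 45.16% in CLIP.

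Across single rows, 848 of 10334 were higher in TET2 CLIP than in input (8.21%) and 297 were lower (2.87%), by edgeR's quasi-likelihood test with Benjamini-Hochberg adjustment at 0.05. The fit scales libraries by the trimmed mean of M-values (TMM), which centres most genes near no change: the median log2 change of all tested rows was -0.04. Scaled by library size alone, the median was -0.45 and the calls were 684 higher and 1326 lower, so the split of higher against lower calls rests on the scaling (74.1% higher with TMM, 34% with library size). Both CLIP libraries lay above both inputs for 2442 rows (23.6%) and below them for 3173 (30.7%), counted on CPM scaled by TMM, the unit of all levels that follow.

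Because the CLIP libraries were small, a row could pass the count filter on about 3.23 counts in the first CLIP library but needed about 43.3 in the first input. A row that passed only through the CLIP libraries of clone 65 had to be higher there. Counts of calls are therefore given again for the 8518 rows whose input counts alone passed, of which 415 were higher (4.87%) and 297 lower (3.49%).

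Unnamed snRNA copies were higher in 151 of the 158 tested rows and lower in 0, and the median log2 change was 3.99. Among the 40 that passed by their input, 37 were higher, and their median was 3.17. The other 751 rows could not be tested.

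Named snRNAs are the RNA cores of the spliceosome. The list also takes in U3 copies, which belong to the C/D box RNAs and act in rRNA processing. All 8 tested rows of 22 were higher, 7 of 7 among those that passed by their input. The U1 gene Rnu1b1 (chr3:96359953-96360117, GRCm38) was at 199 and 188 CPM in the inputs and 2782 and 2884 in CLIP (log2 change 3.87, SE 0.18, adjusted p = 4.64e-16). U1 RNA recognises the start of introns. Its second copy Rnu1b2 went from 90.4 and 87.2 to 713 and 699, a log2 change of 2.99. Another copy, Rnu1b6, had a log2 change of 3.11. Copies of U1 are near-identical, so how their reads were divided is uncertain.

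The U5 gene Rnu5g (chr9:65201726-65201841) stood at 336 and 394 CPM in the inputs and 5481 and 4746 in CLIP. Its log2 change was 3.81 (SE 0.21, adjusted p = 2.72e-14). U5 RNA holds the exons in place for joining. Rnu12, of the minor spliceosome that removes a rare class of introns, was at 252 and 250 in the inputs and 1831 and 2355 in CLIP (log2 change 3.06). The U3 rows Rnu3b3, Rnu3a and Rnu3b4 had log2 changes of 3.02, 2.18 and 1.41. In the U1, U5 and U12 genes neither CLIP library came near an input.

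The structured non-coding RNAs were led by Rmrp (chr4:43492785-43493059), the RNA of RNase MRP, which cuts rRNA precursors. It held 535 and 440 CPM in the inputs and 15752 and 20330 in CLIP. The log2 change was 5.21 (SE 0.19, adjusted p = 2.19e-17), and 6802 raw counts stood behind it in CLIP. Rmrp was among the most counted rows of both CLIP libraries.

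Rpph1 (chr14:50807447-50807771), the RNA of RNase P, was at 176 and 217 in the inputs and 1698 and 2165 in CLIP (log2 change 3.30, SE 0.18). Vaultrc5, a vault RNA, went from 80.4 and 102 to 1145 and 1301 (log2 change 3.73). The Y RNA Rny1, which binds Ro proteins, went from 48.5 and 52.6 to 525 and 463 (log2 change 3.28). These 3 RNAs are all made by RNA polymerase III and are short and folded.

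Rn7sk (chr9:78175302-78175633), which holds the elongation factor P-TEFb inactive, had the highest input level of the list, 1375 and 1481 CPM. It rose to 8545 and 12787 (log2 change 2.90, SE 0.19). Rny3 had a log2 change of 2.32. The 7SL RNAs of the signal recognition particle rose less, with 1.80 for Rn7s1 and 0.97 for Rn7s2. Terc, the telomerase RNA, was at 55 and 80.9 in the inputs and 60.8 and 77.1 in CLIP. It overlapped with the inputs (log2 change -0.01, adjusted p = 0.994). In all, 8 of 10 tested rows were higher and 0 lower. Rn7s6 missed the threshold, with a log2 change of 2.05 and an adjusted p of 0.209.

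Genes for protein partners of these RNAs are set beside the 8.21% of all tested rows that were higher and the 2.87% that were lower. Of 5 tested genes for RNase P and MRP subunits, 0 were higher and 1 was lower, Pop1 (log2 change -1.40, adjusted p = 0.0407). Of 26 tested genes for snRNP proteins, 0 were higher and 1 was lower, Snrpg, with 150 counts in the inputs and 0 in CLIP, at least 2.16-fold lower against a floor of 3 counts over both CLIP libraries. The Pop1 call was lost with each of the 4 clone 65 libraries left out (adjusted p from 0.0656 to 0.114). The Snrpg call was lost without either CLIP library (adjusted p = 0.122 in both).

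**Figure D2:**
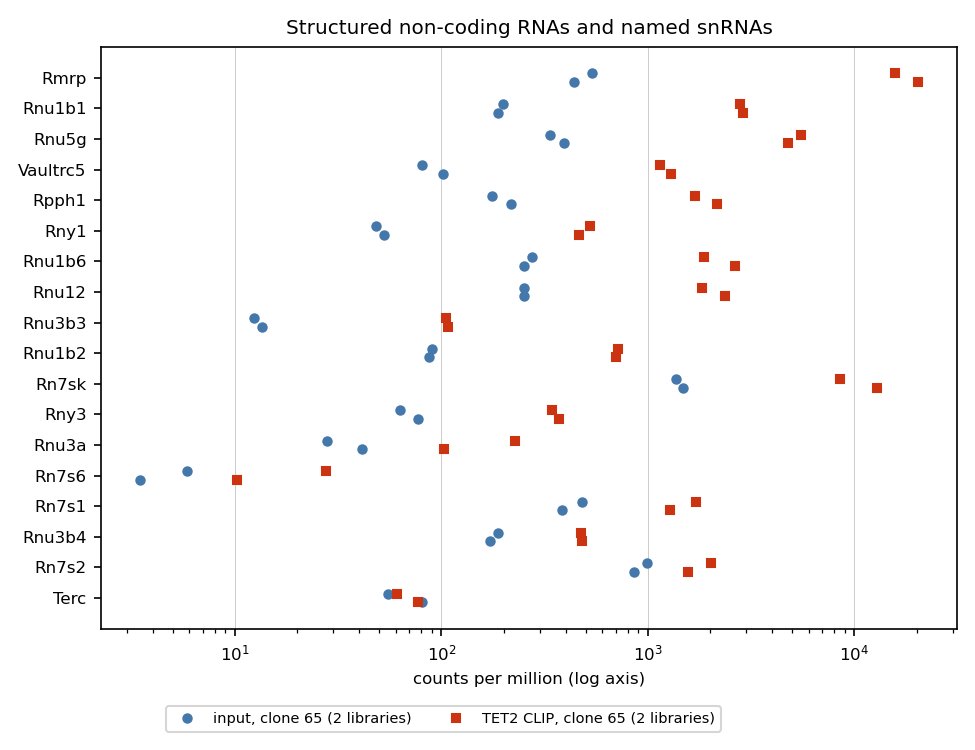
Level, in CPM (log axis), of each tested structured non-coding RNA and named snRNA in the 2 inputs (circles) and 2 TET2 CLIP libraries (squares) of clone 65, ordered by log2 change. Rmrp stands at the top, at 15752 and 20330 in CLIP, and Terc at the bottom is the 1 row whose libraries overlap.

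The unnamed snRNA copies were sorted by their RefSeq length, since their names give no type. The 33 rows of 171 to 200 bases took 4.534% and 5.336% of all CLIP counts, against 0.7853% and 0.8491% in the inputs. Shares are over all rows of a length group, tested or not. Of these 33 rows 13 were tested, and 13 of 13 were higher. Rows of 100 to 110 bases were far more numerous: 105 tested and 99 higher, with a median log2 change of 4.59 but only 1.2% and 1.349% of CLIP counts. Those of 111 to 130 bases took 2.039% and 1.769%, with 9 of 9 higher. Those of 151 to 170 bases took 1.24% and 1.337%, with 27 of 28 higher. The rows of 171 to 200 bases thus held more counts than any other length group. Of the 105 copies of 100 to 110 bases, 15 passed by their input, with 12 higher and a median of 2.69. By input, 6 of 6 rows of 111 to 130 bases were higher (median 4.11), 7 of 7 of 151 to 170 bases (3.16) and 9 of 9 of 171 to 200 bases (3.07).

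Among the most counted copies, Gm24497 (chr1:72244213-72244403) was at 2912 and 2661 CPM in the inputs and 15226 and 16978 in CLIP, a log2 change of 2.53. Gm25939 on the same chromosome (chr1:72255008-72255198) went from 821 and 938 to 12450 and 14602, a log2 change of 3.94. Gm25890 had a log2 change of 2.39 and Gm24950 of 3.24. Gm25541 (chr2:27539805-27539930) had the smallest p of the class, at 33.5 and 36.6 in the inputs and 902 and 905 in CLIP (log2 change 4.67, SE 0.15, adjusted p = 7.38e-20). Its 2 CLIP libraries differed by less than the 2 inputs did on the log scale.

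For 5S rRNA, 55 of 61 tested rows were higher and 0 lower, and 35 of 37 among those that passed by their input. The median log2 change was 2.98. The row n-R5s56 was at 235 and 221 in the inputs and 2732 and 2833 in CLIP (log2 change 3.61). The rows n-R5s175, n-R5s71 and n-R5s162 changed by 3.28, 3.38 and 3.29. The gene copies of 5S rRNA are near-identical, so these rows are not independent. The 5.8S rRNA row n-R5-8s1 went the other way, from 712 and 594 to 99.6 and 180 (log2 change -2.21, SE 0.26, adjusted p = 1.32e-08).

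tRNAs carry amino acids to the ribosome and are transcribed, like 5S rRNA, by RNA polymerase III. Of 435 tRNA rows, 207 had no count in the 4 libraries and 176 had a count in CLIP, 123 of them in both CLIP libraries. Of the 80 tested, 66 were higher and 1 lower, with a median log2 change of 3.94. Only 22 passed by their input, and of those 15 were higher and 1 lower, with a median of 1.85. The 355 untested rows held 803 input and 278 CLIP counts together.

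Since tRNA gene copies share reads, rows were also summed over each isoacceptor, the set of tRNAs with 1 anticodon. Of 37 isoacceptors tested, 35 were higher and 0 lower, where 7.93% of all rows in that fit were higher and 2.77% lower. The median log2 change was 3.68. Only 10 of the 37 passed by their input, and of those 9 were higher and 0 lower, with a median of 2.26. The remaining 15 of 52 had at most 35 counts in any 1 library and were not tested.

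ArgCCT showed the largest change. It was at 5.58 and 7.14 CPM in the inputs and 360 and 464 in CLIP, a log2 change of 5.96 (SE 0.27, adjusted p = 2.31e-17). LysTTT followed with 3.1 and 1.46 against 94.2 and 160 (log2 change 5.88). AspGTC went from 13.3 and 18.9 to 393 and 469 (log2 change 4.69). None of these 3 passed by its input, so they were tested through counts in other libraries.

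The same holds for LeuCAA, SeCTCA and PheGAA. LeuCAA, at 12.7 and 17.9 in the inputs, reached 238 and 278 in CLIP (log2 change 4.02, SE 0.24). MetCAT, which includes the initiator tRNA, went from 67.6 and 60.2 to 914 and 809, a log2 change of 3.76 with the smallest p of all isoacceptors (7.32e-18, adjusted). GlyTCC went from 63 and 56 to 598 and 742 (log2 change 3.51). SeCTCA, the selenocysteine tRNA, had a log2 change of 4.47. PheGAA had 0 counts in 1 CLIP library and 61.9 CPM in the other, so its log2 change of 4.34 rests on 1 library.

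Among the 10 isoacceptors that passed by their input, the 6 above 100 CPM in both inputs had log2 changes of at most 2.37. The other 4, LeuAAG (3.82), MetCAT, GlyTCC and LysCTT (2.72), lay above that. GluCTC was at 318 and 325 in the inputs and 1468 and 1856 in CLIP (log2 change 2.37). GlyGCC went from 285 and 258 to 1180 and 1232 (log2 change 2.15), and AlaAGC from 568 and 546 to 1595 and 2144 (log2 change 1.75). GluTTC had a log2 change of 1.69 and AlaTGC of 0.75. GlyCCC stood at 182 and 198 against 227 and 263 (log2 change 0.37, adjusted p = 0.244) and AlaCGC at 7.75 and 7.87 against 16.6 and 30.9 (log2 change 1.61, adjusted p = 0.138). Those 2 did not pass the test.

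The make-up of the tRNA counts shifted accordingly. Alanine tRNAs were 30.78% and 30.05% of tRNA counts in the inputs and 16.67% and 18.85% in CLIP. Glutamate tRNAs were 33.88% and 34.76% in the inputs and 26.1% and 27.25% in CLIP. Arginine tRNAs went from 0.8931% and 0.9435% to 4.669% and 5.006%, leucine from 1.906% and 2.055% to 5.422% and 6.5%, and methionine from 2.906% and 2.631% to 8.283% and 6.338%. Cysteine tRNAs, with 57 gene rows, had 24 and 33 counts in the inputs and 0 and 1 in CLIP. That is too few to be tested.

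Single gene copies of 1 isoacceptor did not all move alike. The row chr13.tRNA99-MetCAT went from 2.48 and 3.48 CPM to 498 and 344 (log2 change 7.04), and did not pass by its input. The row chr13.tRNA111-MetCAT had 182 counts in the inputs and 2 in CLIP, a ratio of 0.254 with a 95% counting interval of 0.0306 to 0.931. The row chr3.tRNA752-GlyCCC was lower, at 155 and 159 against 71.9 and 66.8 (log2 change -1.18, adjusted p = 0.00397). It is the 1 tRNA row called lower. The row chr1.tRNA1555-GluTTC was at 227 and 211 against 260 and 231 (adjusted p = 0.655).

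Genes for the enzymes that charge tRNAs had 0 of 22 higher and 1 lower, Vars (log2 change -1.28, adjusted p = 0.0115; 0.0882 without the second CLIP library). Among 27 tested genes of tRNA processing and cleavage, 3 were higher (11.1%) and 1 lower (3.7%), against 8.21% and 2.87% of all tested rows. Of the 25 that passed by their input, 2 were higher and 1 lower, where 4.87% and 3.49% of all such rows were. Trmt10c, a subunit of mitochondrial RNase P, went from 11.8 and 13.4 to 116 and 87.4 (log2 change 2.98). It did not pass by its input, and the snoRNA gene Gm22422 lies within it. Ssb, the La protein that binds the ends of polymerase III transcripts, had a log2 change of 1.53 (adjusted p = 0.00983), which missed the threshold with any 1 of the 4 clone 65 libraries left out (0.0683 to 0.148). Dicer1, which cuts miRNA precursors, had a log2 change of 0.92, and its call was lost without the first CLIP library (adjusted p = 0.471). The lower gene, Dus3l, had 328 input and 3 CLIP counts, a ratio of 0.212 with a 95% counting interval of 0.0434 to 0.624. Its call was lost without the first input or either CLIP library (adjusted p from 0.0573 to 0.137). For the 8 tested genes of RNA cytosine methylation, 0 were called either way. Nsun2, a tRNA and mRNA methyltransferase, was at 69 and 79.3 against 44.2 and 77.1.

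**Figure D3:**
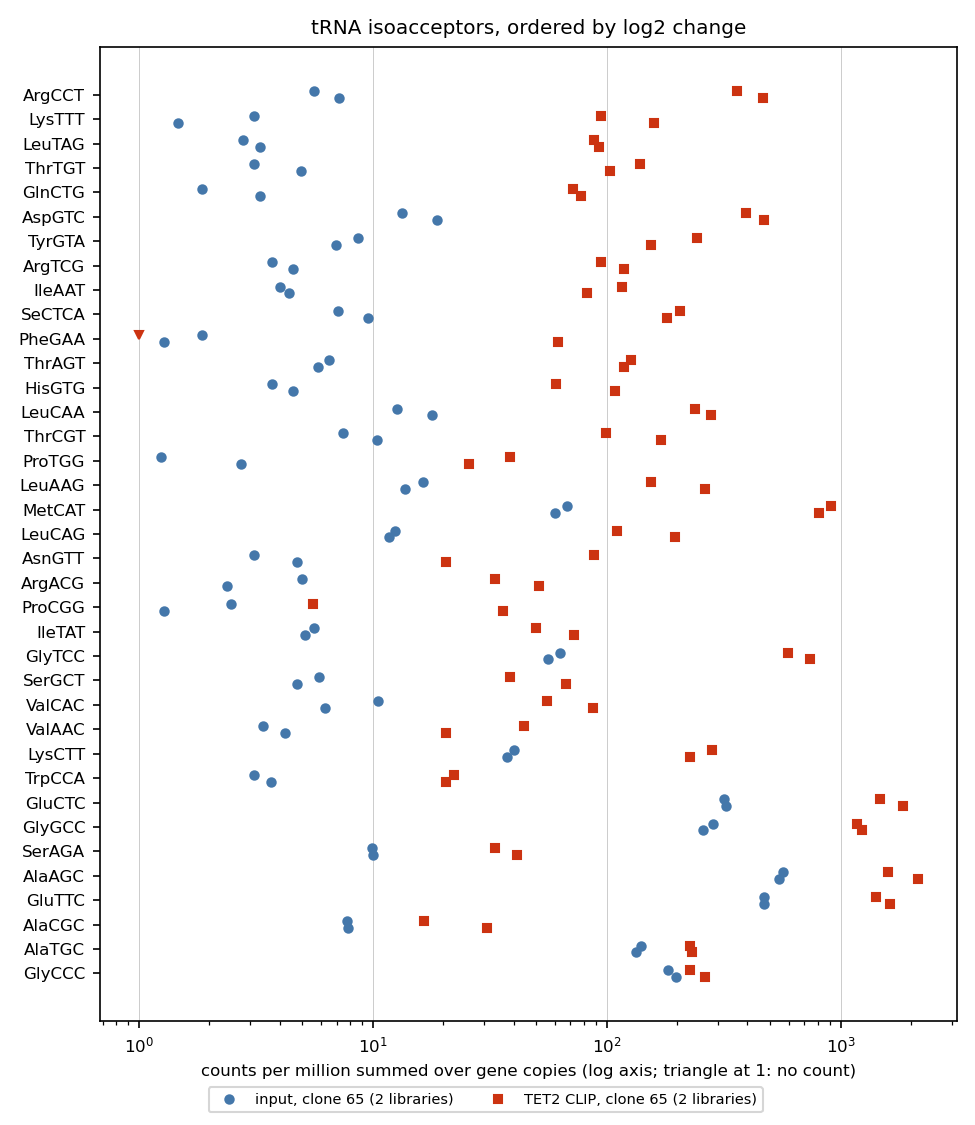
Level in CPM summed over the gene copies of each of 37 tRNA isoacceptors (log axis) in the 2 inputs (circles) and 2 TET2 CLIP libraries (squares) of clone 65, ordered by log2 change. ArgCCT at the top goes from 5.58 and 7.14 to 360 and 464, and of the 37, 10 passed the count filter by their input. The triangle marks the CLIP library in which PheGAA had no count.

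Of the 1180 miRNA rows, 14 could be tested: 10 were higher and 2 lower, or 3 and 2 of the 6 that passed by their input. The counts are for the gene row, so which arm of a hairpin they come from was not resolved. Rows are miRNA by annotation alone. Whether their counts come from miRNA or from other RNA alike in sequence, such as tRNA or rRNA, was not tested. Mir6236 was the 1 well-counted row, at 3136 and 2775 CPM in the inputs and 19706 and 10103 in CLIP (log2 change 2.33, SE 0.25). Mir5119 was higher, at 69.9 and 65.9 against 254 and 170 (log2 change 1.64), as was Mir34a at 16.8 and 21.2 against 71.9 and 159 (log2 change 2.59).

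The other 7 higher rows rested on few counts, and none passed by its input. Mir1983 had 24 counts in the inputs and 31 in CLIP (log2 change 4.86), and Mir5100 had 20 and 22 (log2 change 4.63). Mirlet7a-1 had 1 count in the inputs and 12 in CLIP, and Mirlet7g had 1 and 9. Mir16-1 had 2 and 7, Mir301b 3 and 16, and Mir290a 5 and 24. Mir2137 was lower, with 427 input counts and 0 in CLIP, which makes it at least 6.15-fold lower against the floor of 3 counts. Mir378c had 244 and 1, a ratio of 0.0948 with a 95% counting interval of 0.00239 to 0.533. Mature sequences of these rows, from RefSeq (GRCm38.p6) and with the seed (bases 2 to 8) in capitals, show that the let-7 rows share a seed and that the others do not.
let-7a-5p: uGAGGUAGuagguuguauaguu
let-7g-5p: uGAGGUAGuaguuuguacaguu
miR-16-5p: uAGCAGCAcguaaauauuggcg
miR-34a-5p: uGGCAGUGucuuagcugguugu
miR-290a-3p: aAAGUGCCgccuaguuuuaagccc
miR-6236: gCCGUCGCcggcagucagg
miR-5119: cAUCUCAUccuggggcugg
miR-2137: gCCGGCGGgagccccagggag
miR-378c: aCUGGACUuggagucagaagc

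Replication-dependent histone genes were higher in 38 of 52 tested rows of 70 and lower in 0, and the median log2 change was 1.38. Among the 42 that passed by their input, 28 were higher. With library size alone, 29 were higher and 1 lower. The nucleosome core families were H2B with 14 of 14 higher (median 1.54), H2A with 8 of 10 (1.56), H4 with 10 of 13 (1.84) and H3 with 5 of 10 (0.91). The linker histone H1 had 1 of 5 higher, with a median of 0.23. Family counts and medians cover all 52 tested rows and were not taken again for the 42 that passed by their input. Without the first CLIP library 24 histone rows were higher, and without the second 19.

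Hist1h4h was at 47.5 and 48.5 CPM in the inputs and 221 and 314 in CLIP (log2 change 2.48). Hist1h2bp went from 15.2 and 20.1 to 127 and 92.5 (log2 change 2.59), and Hist1h3g from 31.7 and 41.8 to 183 and 165 (log2 change 2.20). Hist1h4k, better counted, went from 203 and 187 to 431 and 499 (log2 change 1.26, SE 0.16). In these 4 genes both CLIP libraries lay above both inputs. Histone genes of a family are alike in sequence, so reads may be split among them.

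The snoRNAs did not move as a class. Of 19 tested C/D box rows, 4 were higher (21.1%) and 4 lower (21.1%), against 8.21% and 2.87% of all tested rows. Of 10 H/ACA and scaRNA rows 0 were higher and 1 lower (10%). Snord118 (chr11:69073426-69073562), the U8 RNA of rRNA maturation, was at 328 and 392 in the inputs and 1366 and 1599 in CLIP (log2 change 2.04, SE 0.17). Snord49a and Snord49b had log2 changes of 2.34 and 2.20. Snord13 fell by 1.74 on the log2 scale, from 151 and 153 to 44.2 and 46.3. The H/ACA row Snora78 (chr17:24719676-24719832) had 1253 input and 3 CLIP counts, a ratio of 0.0554 with a 95% counting interval of 0.0114 to 0.162. Of 14 tested snoRNA host genes, 3 were higher (21.4%), Snhg8 at 1.97, Gas5 at 0.95 and Snhg1 at 0.58. Snhg17 was the 1 lower (7.14%), at -1.04. The Snhg1 call was lost in all 8 fits that left out a library and with library size alone.

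**Figure D4:**
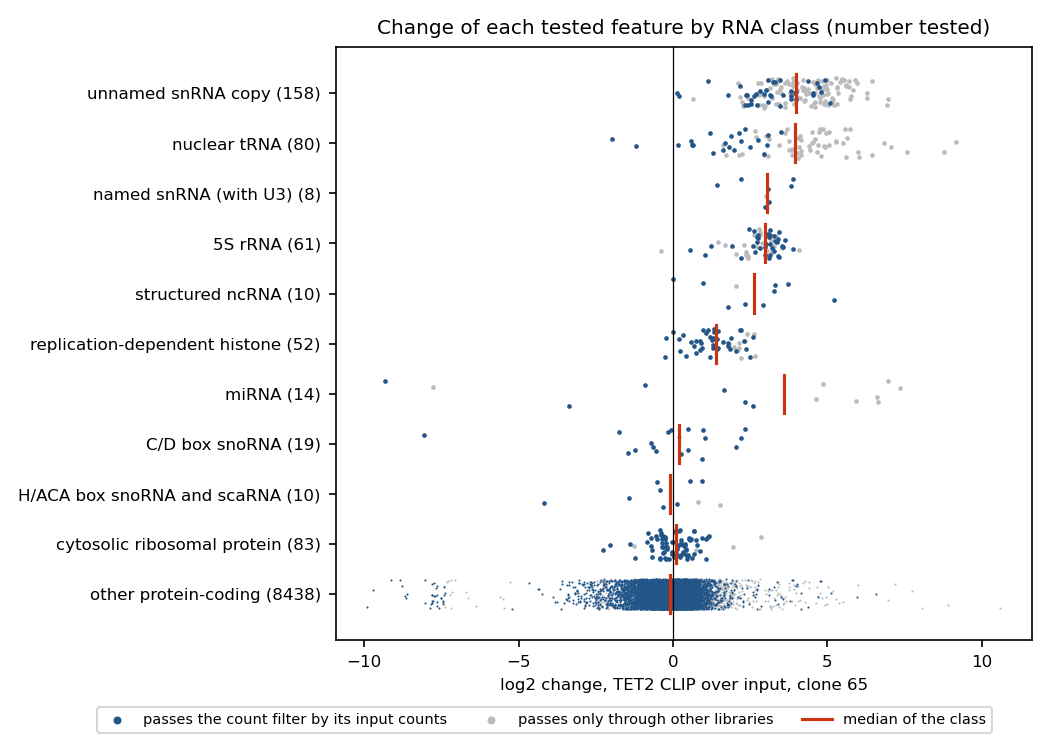
Log2 change of each tested row in TET2 CLIP over input of clone 65, by RNA class, with the number tested in brackets and the class median as a line. Dark points passed the count filter by their input counts and pale points did not. Medians run from 3.99 for unnamed snRNA copies to -0.10 for other protein-coding genes. Points far to the left are rows with no CLIP count, whose fitted change is no bound.

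Protein-coding genes outside the lists above made up 8438 tested rows. Of these 304 were higher (3.6%) and 248 lower (2.94%), against 8.21% and 2.87% of all tested rows. The median log2 change was -0.10. Among the 7368 that passed by their input, 189 were higher and 248 lower, where 4.87% and 3.49% of all such rows were. Every lower call passed by its input, so this limit could remove only higher calls. Over all rows the split of higher against lower calls rested on the scaling. The class held 8438 of the 10334 tested rows, 35.8% of all higher calls and 83.5% of all lower calls. Of the 304, 138 rose by more than 2 on the log2 scale, and 42 of these passed by their input. A RefSeq small RNA gene lay within 5 of those 42 (11.9%) and within 10.1% of all coding genes that passed by their input.

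Col4a2 (chr8:11312805-11449287), a chain of basement membrane collagen, had the smallest p of any row. It was at 21.4 and 16.8 CPM in the inputs and 2041 and 1563 in CLIP (log2 change 6.58, SE 0.20, adjusted p = 5.16e-20). Its head-to-head neighbour Col4a1 was at 5.28 and 5.86 against 5.53 and 41.1, and did not pass (adjusted p = 0.089). The other tested extraembryonic endoderm markers, which include basement membrane genes, gave no call either.

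Hsf1 (chr15:76477362-76501155), the master transcription factor of the heat shock response, was the most counted of these coding genes. It went from 107 and 96.5 to 7937 and 4586 CPM (log2 change 5.94, SE 0.20, adjusted p = 4.83e-18), with 2327 raw counts in CLIP. Ros1 (chr10:52044863-52195398), a receptor tyrosine kinase, had 8 counts in both inputs together and 178 in CLIP, and was at 514 and 437 CPM there (log2 change 8.89). Gucy2e (chr11:69218117-69237279), a retinal guanylate cyclase, went from 5.28 and 3.66 to 691 and 396 (log2 change 6.95). Neither Ros1 nor Gucy2e passed by its input, so they too were tested through counts in other libraries. Both CLIP libraries lay above both inputs in each of these genes, which the rule that named them required.

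Nipa2 (chr7:55931266-55962493), a magnesium transporter, was at 39.8 and 41.9 in the inputs and 1278 and 1013 in CLIP (log2 change 4.80). Plag1 (chr4:3898769-3938430), a zinc finger transcription factor, went from 26.1 and 27.1 to 780 and 674 (log2 change 4.76). Usp15 (chr10:123105006-123197281), a deubiquitinating enzyme, went from 65.8 and 71.2 to 1316 and 895 (log2 change 4.00). No RefSeq small RNA gene lay within Col4a2, Hsf1, Ros1, Gucy2e, Nipa2, Plag1 or Usp15. Counts are for whole gene rows, so whether the reads fell in exons, introns or UTRs is not known here, and whether they lay on the gene's strand is not either.

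Falls were harder to measure, since a fall leaves few counts in small libraries. The 297 lower rows had a median of 10 CLIP counts in all, and 82 of them were at or under 3. The long non-coding RNA Malat1 held the most, 2012, with a log2 change of -0.70. Lars2 (chr9:123366927-123462675), annotated as a mitochondrial leucyl-tRNA synthetase, held the most of the coding genes, 1258. It belongs to the rows led by Gm26917 that were taken here to collect rRNA reads. Whether its counts come from the synthetase mRNA was not tested. It was at 11674 and 11437 CPM in the inputs and 3623 and 3100 in CLIP (log2 change -1.78, SE 0.19, adjusted p = 2.87e-08).

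Wtap (chr17:12966799-12992543), a subunit of the m6A methyltransferase complex, went from 557 and 430 to 88.5 and 103 (log2 change -2.36, adjusted p = 1.39e-08). Zfp654 (chr16:64780347-64851937), a zinc finger gene, went from 347 and 277 to 38.7 and 20.6 (log2 change -3.40). Cnnm3 went from 996 and 717 to 310 and 303 (log2 change -1.48), and Ube3c, a ubiquitin ligase, from 287 and 255 to 71.9 and 97.7 (log2 change -1.66). Gata3 (chr2:9857078-9887953), a trophoblast and T cell transcription factor, went from 201 and 150 to 22.1 and 20.6 (log2 change -3.02). Gm14236, a row with no RefSeq match, had a log2 change of -3.21, and the long non-coding RNA Gm15564 of -1.75. Both CLIP libraries lay below both inputs in each of them, which the rule that named these rows required.

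Enam, Vstm2l, Nkx6-1 and 2310014F06Rik had 1203, 878, 941 and 843 input counts and 2, 1, 2 and 1 CLIP counts. Their ratios were 0.0385 (95% counting interval 0.00465 to 0.139), 0.0263 (0.000666 to 0.147), 0.0492 (0.00594 to 0.178) and 0.0274 (0.000694 to 0.153). Gm24601 was at 161 and 151 against 44.2 and 5.14.

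Cytosolic ribosomal protein genes had 8 of 83 higher (9.64%) and 3 lower (3.61%), near the 8.21% and 2.87% of all tested rows. Their median was 0.10, or -0.31 if scaled by library size alone. Rps20 was at 168 and 169 against 387 and 350 (log2 change 1.12). Translation factors with 5′TOP mRNAs had 1 of 20 higher (5%), Npm1 (1.11), and 3 lower (15%), Eef1a1 (-0.70), Eef2 (-0.72) and Eif3l (-1.80). SR and hnRNP splicing regulators had 3 of 36 higher (8.33%): Hnrnpa3 (1.27), Syncrip (0.83) and Srsf10 (0.97). Of these splicing regulator calls, Syncrip and Srsf10 were lost with library size alone (adjusted p = 0.208 and 0.179). Of the translation factor calls, Eif3l missed the threshold with DESeq2's size factors (adjusted p = 0.0501). Without the first CLIP library the adjusted p was 0.0638 for Npm1, 0.232 for Eif3l, 0.0637 for Hnrnpa3, 0.431 for Syncrip and 0.615 for Srsf10. Without the first input it was 0.0787 for Eef2, and without the second 0.0803 for Eef1a1. The splicing regulator and translation factor calls thus each missed the threshold in at least 1 alternative. Leaving out a library leaves its group with 1, so a lost call there does not place the main value near the threshold.

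Pluripotency genes had 1 of 25 higher (4%), Zfp42 (Rex1, log2 change 0.84), and 2 lower (8%), Trim28 (-1.03) and Il6st (-0.89). Of all tested rows, 8.21% were higher and 2.87% lower. The Zfp42 call was lost with library size alone (adjusted p = 0.175). Of 13 tested TET and DNA methylation genes, 1 was higher (7.69%), Tet3, at 34.2 and 41 against 111 and 87.4 (log2 change 1.37, adjusted p = 0.00308). The Tet3 call was lost without the first CLIP library. Of 11 nuclear-retained long non-coding RNAs, Tsix (1.08) and Mirg (1.04) were higher (18.2%) and Malat1 (-0.70) and Firre (-0.95) were lower (18.2%). Of 8 reference genes, 1 was higher (12.5%), Ywhaz (0.84). Its call was lost with library size alone (adjusted p = 0.267) and with any 1 of the 8 libraries left out. Without the first CLIP library the adjusted p was 0.348 for Zfp42 and 0.129 for Firre, and without the second 0.653 for Mirg. Without the first input it was 0.125 for Il6st and 0.0557 for Malat1.

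Of the mitochondrial RNAs, both rRNA rows missed the threshold. A single one of 8 tested tRNA rows was higher (12.5%, against 8.21% of all tested rows), mt-Tl1 (leucine; 43.2 and 55.1 against 310 and 175, log2 change 2.26). Of 9 mRNA rows, 2 were higher (22.2%), mt-Nd5 (1.02) and mt-Nd4l (0.85). Without the first CLIP library the adjusted p was 0.481 for mt-Nd5 and 0.237 for mt-Nd4l. The mt-mRNA median of 0.36 turned to -0.05 with library size alone.

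Clone 75 was compared by testing the difference between the log2 changes of the clones, in 1 fit over all 8 libraries. The clones do not share inputs. A group of 5 rows taken here to collect rRNA reads was led by Gm26917 and included Lars2. In the clone 75 inputs these rows took 43.62% and 38.16% of the counts, against 30.43% and 26.81% in the clone 65 inputs. In the 4 CLIP libraries they took 21.23% to 23.79%. The part of this in the differences was not tested. The clone 65 change was larger on the signed scale for 229 rows (2.22%) and smaller for 34 (0.329%). That balance depends on scaling, as library size alone gave 104 and 638. Of the 848 rows higher in clone 65, 404 were also higher in clone 75, which is 47.6% of the clone 65 rows and 62.8% of the 643 in clone 75. Of the rest, 76 differed between the clones by test and 368 did not. Of the 297 lower rows, 122 were also lower in clone 75, 41.1% of clone 65's and 30.0% of the 406 in clone 75.

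The small RNA lists had higher medians in clone 65. Unnamed snRNA copies had 3.99 against 2.29 in clone 75, with 44 of 158 rows larger in clone 65 by test and 0 smaller, or 24 and 0 with library size alone. Over the 40 that passed by their input the medians were 3.17 and 1.85, with 28 larger in clone 65. Medians were 3.94 against 2.56 for tRNA rows, 2.98 against 1.93 for 5S rRNA, and 1.38 against 0.44 for histones. By input they were 1.85 against 1.07, 3.10 against 1.97 and 1.27 against 0.33, in the same order. The rows larger in clone 65 by test were 6, 16 and 8 with TMM and 4, 5 and 1 with library size. Rows smaller in clone 65 were 0 in these lists under both scalings. Of the isoacceptors, 9 of 37 were larger in clone 65, among them AspGTC (difference 2.52), LeuCAA (2.23) and ArgCCT (2.12), and 0 were smaller, with TMM. AspGTC, LeuCAA and ArgCCT did not pass by their input. Of the 10 that did, MetCAT (1.43), GluCTC (1.04) and GlyGCC (0.89) were larger by test and the rest gave no call. This count was not made with library size alone.

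**Figure D5:**
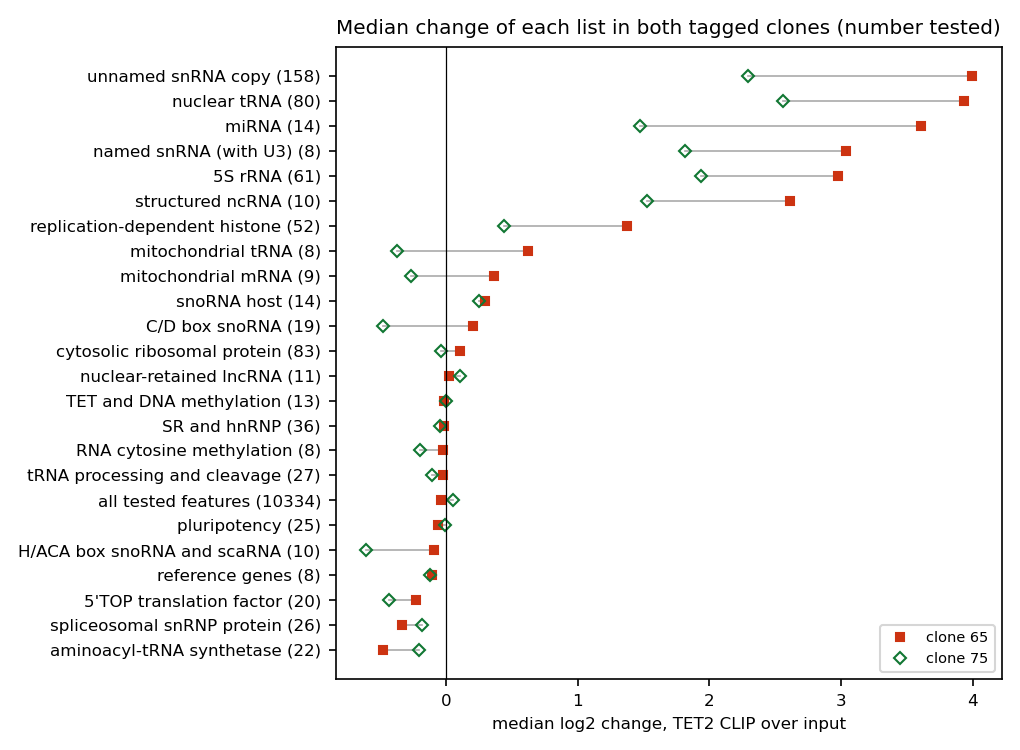
Median log2 change of TET2 CLIP over input for each list with 8 or more tested rows, in clone 65 (squares) and clone 75 (diamonds), with the number of rows in brackets. The small RNA and histone lists lie further to the right in clone 65, such as unnamed snRNA copies at 3.99 against 2.29, and most messenger lists lie near 0 in both. Medians are over all tested rows, also those that did not pass by their input. By input, clones 65 and 75 had 3.17 and 1.85 for unnamed snRNA copies, 1.85 and 1.07 for tRNA, and 0.37 and -1.17 for miRNA.

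Some coding genes differed widely between the clones. Noxred1 had a log2 change of 3.30 in clone 65 and 0.54 in clone 75 (difference 2.76, adjusted p = 3.73e-07). Ralgapa2, a subunit of a Ral GTPase-activating complex, had 2.60 and 0.12, and Cspg5, a neural proteoglycan, 4.14 and 1.61. Syngr1 had -1.23 and 0.41, and Rbm14 -0.03 and 1.16. The differences for these 5 genes kept their sign and passed the test with library size alone as well. Some inputs differed too. Noxred1 input was at 83.9 and 68.3 CPM in clone 65 and 142 and 148 in clone 75. Ralgapa2 input was at 500 and 384 against 742 and 611, and Cspg5 input at 127 and 113 against 235 and 208. The part of the inputs in these differences was not tested.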

How the data were processed

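The authors' deposited table gives raw counts per gene row for 8 libraries (TET2 CLIP and input, clones 65 and 75, 2 each). UMI-tools, cutadapt, STAR 2.5.3a, Bowtie2 2.2.6 and mm10 are named, per the submitters' processing notes. The counting tool, annotation and use of strand are not given in the sources used here. Where copies are near-identical or genes overlap, reads may be split.

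Rows were tested with edgeR 4.0.16 (R 4.3.3): filterByExpr by group (minimum count 10), TMM, robust quasi-likelihood F-test, Benjamini-Hochberg adjustment, threshold 0.05. All 8 libraries shared 1 fit, with 4 group means. SEs are from the fit. tRNA rows were summed by isoacceptor in a second fit. Shares carry 95% exact binomial intervals in the tables; these and count ratio intervals cover counting error only. Names, biotypes, lengths and positions came from RefSeq GRCm38.p6, which matched 37599 of 53465 gene rows. On simulated counts over 9391 rows the test recovered 97.9% of 4-fold rises, 34.8% of 2-fold rises, 42.9% of 4-fold falls and 21.4% of 2-fold falls. The simulation gave every row 1 common spread and changed equal numbers of rows up and down. The data did not share these settings, so the rates need not hold for them.

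Named genes are the 15 higher and 15 lower rows of smallest p with no overlap of CLIP and input, as many as 4 members of each list, the 12 most counted in CLIP, 6 each way for the clone difference, and Tet2. miRNA rows, single tRNA rows past the rule, isoacceptors, Rnu3, Rn7s, Terc and Rny3 rows were named after their values were seen. Members and lists were chosen with earlier results of these data known. Alternatives were other scalings, no filter, DESeq2 1.42.0, clone 65 alone, a replicate block and leaving out each library.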

Additional observations from a re-analysis of the deposited data

Results flagged for a closer look

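Of the named rows, 56 differed between the clones by edgeR's test of the difference itself, with Benjamini-Hochberg adjustment over all tested rows. In 50 the log2 change was larger in clone 65 and in 6 it was smaller. With library size alone all 56 kept the sign and 32 stayed past the threshold. Values are the log2 change in clone 65 minus that in clone 75, and groups of 2 libraries allow no check for outlying samples.

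Among unnamed snRNA copies the differences were Gm25541 (1.94), Gm23966 (1.85), Gm24018 (1.49), Gm26454 (1.80), Gm22063 (2.09), Gm25099 (2.12), Gm25313 (2.55), Gm24950 (1.04), Gm24497 (1.01) and Gm25890 (0.91). Among structured RNAs and named snRNAs they were Rmrp (1.22), Vaultrc5 (2.03), Rnu1b1 (1.10), Rnu1b2 (1.01), Rny1 (1.93), Rpph1 (1.37), Rnu12 (1.41), Rnu5g (2.66) and Rn7sk (0.98). The 5S rRNA and tRNA rows were n-R5s175 (1.51), chr10.tRNA866-AspGTC (2.24), n-R5s71 (1.67) and n-R5s56 (1.64). Histone, C/D box and miRNA rows were Snord118 (1.55), Hist1h4h (1.44), Snord49a (1.37), Hist1h3g (1.53), Mir6236 (1.91) and Hist1h4k (1.12), and mitochondrial rows mt-Tl1 (1.28), mt-Nd4l (1.03), mt-Tw (2.30) and mt-Co1 (1.16).

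Among protein-coding genes the differences were Col4a2 (2.17), Nipa2 (1.37), Plag1 (1.16), Gucy2e (2.99), Hsf1 (1.99), Usp15 (1.65), Cspg5 (2.53), Noxred1 (2.76), Ralgapa2 (2.48), Trmt10c (3.33), Rps20 (0.97), Npm1 (1.20) and Ssb (2.44). Rows of other biotypes or with no RefSeq match were Gm25179 (2.52), Gm12896 (2.37), Gm15564 (1.39) and CT010467.1 (1.24). The smaller changes in clone 65 were Syngr1 (-1.64), Plppr3 (-1.87), Nnat (-2.08), Gm37736 (-1.69) and Rbm14 (-1.19). Eid3 had 154 input and 0 CLIP counts in clone 65, at least 2.22-fold lower against a floor of 3 counts, and its fitted difference of -8.96 depends on that 0 and is no bound.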

How the results depend on the processing

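Of 155 named rows, 107 kept their side of the threshold under every alternative run, and none changed direction where either fit called it. Medians near 0 and splits of calls did turn. With library size alone, the medians of 5 of 31 lists went from positive to negative: snoRNA host genes, nuclear-retained long non-coding RNAs, mitochondrial mRNA, C/D box snoRNAs and ribosomal protein genes. With no filter the miRNA median turned as well. Depth limits the falls: a row at 0 in both CLIP libraries is known only to lie under 3 counts.

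With library size alone, 1326 rows were lower, the clone difference had 104 larger and 638 smaller, and 4 miRNA and 1 histone rows were lower. With no count filter (38054 rows), 1126 were lower, the clone difference had 141 and 59, 23 miRNA rows were higher and 4 lower, and 24 histone rows were higher and 1 lower. DESeq2's Wald test gave 189 lower rows and 1 lower miRNA row. The cause was not tested.

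Same-numbered libraries did not pair: the correlation of their deviations from the group means was 0.02 in clone 65 and 0.06 in clone 75, across genes. With the replicate block, 742 rows were higher and 246 lower, and 13 were smaller in the clone difference.

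Without the 10 most counted rows, which include Rmrp, the ratio of shares was 4.08 for structured RNAs and 7.9 for unnamed snRNA copies. Leaving out 1 library at a time gave 558 (without the first clone 65 input) to 985 higher rows and 178 (the same input) to 617 lower rows (without the first clone 75 CLIP library; 612 without the second). Without the second clone 65 input, 563 were higher. The clone difference ranged from 83 (without the second clone 75 input) to 271 larger and from 4 (the same input) to 101 smaller (without the second clone 65 CLIP library). Lower miRNA rows ranged from 1 to 4, and higher histone rows from 19 to 37. Leaving out a library leaves its group with 1, assumed to vary like the others.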
